A study of Mus musculus with 18 samples.

Results

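The 39 genes described here are imprinted genes, selected by name from a list of mouse genes with parent-of-origin expression, out of 54532 genes in the count table. Expression was measured by bulk RNA sequencing in 10T1/2 cells, a multipotent mouse fibroblast line derived from an embryo, in 6 groups of 3 libraries each. WT cells and 2 FOXS1 KO clones were either left uninduced or given 1 nM TGF-β1 for 12 h followed by DMII, an adipogenic induction mix, for 48 h. The WT cells carried no edit, and each FOXS1 KO group came from 1 single-cell clone made with CRISPR-Cas9 and 2 co-transfected guide RNAs, so that its 3 libraries stand for 1 clone, and loss of FOXS1 and differences between clones cannot be told apart. The labels do not say whether the 3 libraries of a group came from separate cultures, so the p-values measure the spread between these libraries, which may be technical. The WT libraries of a treatment served as the reference for both clones.

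An imprinted gene is transcribed mainly from the copy inherited from 1 parent, in most cases because DNA methylation laid down in the egg or sperm at a control element marks the parental copies differently. Many of these genes lie in clusters, in which a noncoding RNA and its protein-coding neighbours are often expressed from opposite parental copies. Imprinted genes act in fetal growth and metabolism, and several, such as *Dlk1*, *Mest* and *Peg3*, are known from preadipocytes and adipose tissue. The counts here are totals over both copies of a gene, so they do not show which parental copy was read. In bulk RNA, fewer cells expressing a gene and less RNA per cell cannot be told apart.

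Library totals ran from 15576685 to 42005596 counts, with a median of 20178954. None of the 153 pairs of libraries held identical counts, and the closest pair still differed by more than sampling noise (chi-square per degree of freedom 3.13). *Foxs1*, the edited gene, was at 2.23 ± 0.886 CPM in uninduced WT cells (mean ± SD, n = 3, CPM after TMM scaling of the library totals), 25.75 ± 2.04 CPM in the libraries labelled FOXS1 KO clone 1 and 22.6 ± 1.44 CPM in those labelled clone 2. The stimulated means were 2.51, 54.5 and 39.9 CPM in the same order. A count summed over the gene does not show an edit. The study describes a western blot for FOXS1 protein and sequencing of the edited locus as its checks of both clones, and neither is part of the counts, so the direction of every comparison below rests on the labels. The fibroblast marker list of 10 genes summed to between 34410 and 79960 CPM in every library, with all 10 detected in each group, although *Thy1* was at 0.616 CPM in uninduced clone 2 against 59.65 CPM in WT and 184 CPM in clone 1. Epithelial, endothelial, blood and trophoblast lists summed to at most 3.52 CPM in any library, and the neural list to at most 7.69 CPM. The 4 adipocyte markers, of which all 4 were detected in uninduced WT, summed to 30.5 to 35.4 CPM in uninduced WT, 1.38 to 1.502 CPM in clone 1 and 7.17 to 8.75 CPM in clone 2. In stimulated cells this list summed to 4.16 to 4.97 CPM in WT, with *Plin1* and *Adipoq* at 0, to 24.5 to 35.2 CPM in clone 1 and to 6.13 to 8.24 CPM in clone 2, and its part in the results below was not tested.

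The imprinted genes covered a wide range of levels in uninduced WT cells, compared here as CPM per kilobase of exon. *Mest*, an α/β-hydrolase family gene expressed from the paternal copy, stood highest at 241.5 CPM per kb, above 98.9% of the 14317 genes tested. *Grb10*, which encodes an adaptor of the insulin and IGF1 receptors, followed at 77.0 CPM per kb, and *Igf2r*, the receptor that clears IGF2, at 42.3 CPM per kb. *Copg2*, *Ndn* and *Impact* lay between 21.8 and 25.5 CPM per kb. The median of all tested genes was 4.34 CPM per kb, and 11 of the 39 imprinted genes were above it. *Slc22a18* was just below at 4.19 CPM per kb, and the noncoding RNAs *Rian* and *Meg3* reached 1.93 and 0.200 CPM per kb.

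Of the 39 genes, 24 passed the filter on low counts and were tested, and 15 did not. Among those 15, *Phlda2*, *Ppp1r9a*, *Magel2* and *Nap1l5* had no count in any of the 18 libraries, and the other 11 had between 1 and 68 counts over all libraries together. They include *Igf2*, the fetal growth factor, with 13 counts, *Cdkn1c*, a cyclin dependent kinase inhibitor, with 3, and *Snrpn*, a splicing protein gene of the Prader-Willi region, with 1. Other annotated genes covered 64.5% of the exonic bases of *Igf2*, 30.7% of *Cdkn1c* and 34.1% of *Snrpn*, so their counts are uncertain. The heat map of levels shows these genes as nearly empty rows.

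**Figure D1:**
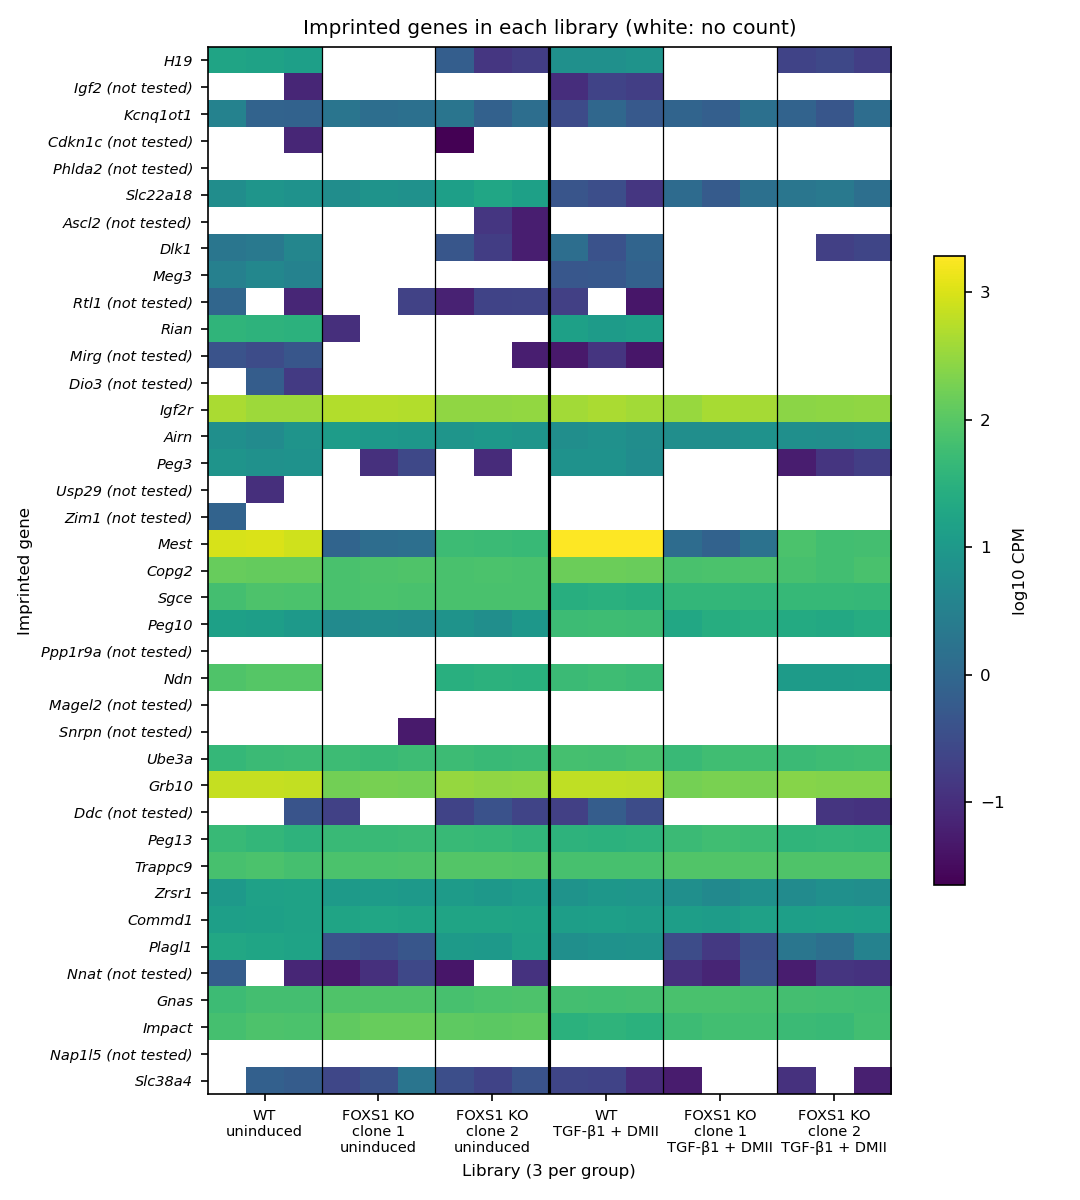
Level of the 39 imprinted genes in each of the 18 libraries, as log10 CPM, with genes ordered by cluster and libraries by group (white cells had no count). WT libraries are filled for *H19*, *Meg3*, *Rian*, *Peg3*, *Mest* and *Ndn*, where some or all clone libraries are white or dark, while *Igf2r*, *Sgce*, *Trappc9* and *Gnas* are filled in all 18 libraries.

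A gene was called where the adjusted p of edgeR's quasi-likelihood test was below 0.05 and the absolute log2 fold change above 1. Of the 24 tested genes, 6 (*H19*, *Dlk1*, *Meg3*, *Rian*, *Peg3* and *Slc38a4*) passed the filter only with the WT libraries, and 18 would have passed on the clone libraries alone. A gene of the first kind was tested only because of its WT level, so the counts are given with and without these genes, as a description. In uninduced cells 10 of the 24 tested imprinted genes were lower in clone 1 than in WT, beside 8.73% of all tested genes. None was higher in clone 1 by edgeR, by DESeq2 or at an unadjusted p under 0.05 past the same fold, beside 6.32% of all genes. In clone 2, 8 were lower beside 9.56% of all genes, and 1 was higher beside 5.54%. After TGF-β1 + DMII, 10 were lower and 1 higher in clone 1, beside 9.6% and 9.42% of all genes, and 11 were lower and 1 higher in clone 2, beside 8.94% and 7.95%. Among the 18 genes that passed on the clone libraries alone, 5 were lower in uninduced clone 1, 3 in uninduced clone 2, 5 in stimulated clone 1 and 6 in stimulated clone 2. The shares of all 13634 genes that passed in the same way were 6.44%, 7.17%, 7.6% and 7.03%. Both clones were pooled for this. *Ndn* reached the count cutoff in 0 clone 1 libraries, and *Plagl1* in 1 uninduced and 0 stimulated clone 1 libraries. Both reached it in all 3 clone 2 libraries of each treatment. They were called lower in clone 1, so its counts still include genes that passed through groups where they are high. The median log2 fold change of the 24 in uninduced cells was -0.18 in clone 1 and -0.47 in clone 2, that of the 18 was -0.013 and -0.15, and that of all tested genes -0.0075 and -0.017.

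The directions were less one-sided without the fold threshold, although lower genes still outnumbered higher ones in each comparison of a clone with WT. By adjusted p alone, 7 of the 24 were higher and 11 lower in uninduced clone 1, beside 26.3% and 27.2% of all tested genes. In uninduced clone 2 there were 5 higher and 12 lower beside 26.3% and 26.9%, in stimulated clone 1 there were 6 and 13 beside 28.4% and 30.5%, and in stimulated clone 2 there were 4 and 14 beside 27.7% and 28.3%.

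The genes lower in both clones and both treatments were *H19*, *Dlk1*, *Meg3*, *Rian*, *Peg3*, *Mest*, *Ndn* and *Grb10*, 8 in all. Over all tested genes 3.77% were lower in each of the 4 comparisons, which share their WT libraries within a treatment. The first 5 of the 8 are among the genes that passed the filter only with WT. The other 3, *Mest*, *Ndn* and *Grb10*, are 3 of the 18 that passed on the clone libraries alone, beside 2.1% of all such genes. Among the clone libraries, *Ndn* passed through those of clone 2 only. *Plagl1* and *Peg10* were called lower in both clones after stimulation. When uninduced they were called in clone 1 but not in clone 2, where both lay below WT without overlap and short of the fold threshold. *Copg2* was called lower only in stimulated clone 2, although it lay below WT without overlap in all 4 comparisons. *Slc22a18* was the gene called higher.

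*Mest* had the highest level per length in WT and was lower in both clones. Its 3 uninduced WT libraries were at 967, 1030 and 861 CPM, those of clone 1 at 0.871, 1.29 and 1.40 CPM, and those of clone 2 at 53.1, 51.5 and 47.5 CPM. The 3 groups did not overlap, with clone 2 between WT and clone 1. The log2 fold change against WT was -9.65 ± 0.14 (SE) in clone 1 (adjusted p = 2.29e-21) and -4.23 ± 0.09 in clone 2 (adjusted p = 1.19e-18). Stimulated WT libraries were at 1918, 1888 and 1849 CPM, those of clone 1 at 1.225, 0.811 and 1.64 CPM and those of clone 2 at 76.6, 62.2 and 64.5 CPM, and the groups again did not overlap. Between the clones, clone 1 against clone 2, the log2 fold change was -5.42 ± 0.15 in uninduced cells (adjusted p = 3.29e-16).

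*Copg2*, a coatomer subunit gene on the opposite strand, overlaps the end of *Mest*, and 17.8% of its exonic bases are also *Mest* exon. It was at 134, 128 and 129.5 CPM in uninduced WT, 74.6, 80.0 and 84.0 CPM in clone 1 and 74.3, 77.1 and 73.9 CPM in clone 2. Both clones lay below WT without overlap, with log2 fold changes of -0.71 ± 0.06 and -0.80 ± 0.06 that stayed short of the fold threshold. In stimulated clone 1 the log2 fold change was -0.94, also short of the threshold, and in stimulated clone 2 it was -1.11 ± 0.06 (adjusted p = 2.54e-16). The call in stimulated clone 2 was lost relative to the chromosome median (-0.94). It was also lost with glmTreat, which tests against the fold threshold itself (adjusted p = 0.0682). Since the strand setting of the counting is not given in the sources used here, reads of the shared exons cannot be assigned to 1 of the 2 genes.

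The DNA before the start of *Mest* is shown because this start lies in the maternally methylated element of the locus. RefSeq lists 3 starts for *Mest*, of which 2 lie 3 bases apart, and the first of that pair is shown. Its 250 upstream bases (GRCm38.p6, plus strand, chr6:30737800-30738049) held 14 CpG dinucleotides, a number reached by 29.4% of the 32851 promoter windows of the same length, whose median was 6. They also held the hexamer TGCCGC, the core of the site bound by ZFP57 at imprinted elements, 2 times when both strands were searched, a hexamer found in 8.68% of all windows. The window of the remaining start (chr6:30733256-30733505) held 7 CpG dinucleotides and no TGCCGC. The windows of *Peg3* and *Ndn*, which were also lower in both clones, held no TGCCGC either. CpG dinucleotides are in capitals here and in the promoters below.
*Mest* promoter: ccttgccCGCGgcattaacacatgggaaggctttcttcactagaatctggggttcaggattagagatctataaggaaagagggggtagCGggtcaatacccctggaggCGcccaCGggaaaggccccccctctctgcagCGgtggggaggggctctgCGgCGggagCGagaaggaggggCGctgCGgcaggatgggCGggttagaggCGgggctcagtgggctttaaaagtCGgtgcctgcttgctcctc

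*Mest* also carries the miR-335 hairpin in its transcript, on the same strand. Mature microRNAs were not measured by these libraries, and their sequences are given to identify the small RNAs that share a host transcript with a gene that was lower in the clones. The seed, bases 2 to 8, is in capitals, and the sequences are those of RefSeq on GRCm38.p6.
mmu-miR-335-5p: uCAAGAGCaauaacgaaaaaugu
mmu-miR-335-3p: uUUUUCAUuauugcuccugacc

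In the *Dlk1-Dio3* cluster on chromosome 12, *Dlk1*, which encodes a transmembrane protein of preadipocytes that restrains adipogenesis, is read from the paternal copy, and the noncoding RNAs *Meg3*, *Rian* and *Mirg* from the maternal copy. Here RNA from both sides of the cluster was lower in the clones. *Rian* was at 38.1, 34.4 and 33.2 CPM in uninduced WT, at 0.1025, 0 and 0 CPM in clone 1 and at 0 CPM in all 3 libraries of clone 2. The 2 counts of clone 1 give a ratio to WT of 0.000997 with a 95% counting interval of 0.000121 to 0.003605, and the absence of counts in clone 2 put it at least 985-fold lower, taking 3 counts over the group as the floor. After stimulation *Rian* had no count in either clone and was at least 286-fold lower in clone 1 and 210-fold lower in clone 2 than WT, whose libraries were at 13.99, 11.3 and 12.85 CPM.

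*Meg3* was at 3.20, 4.25 and 3.39 CPM in uninduced WT and at 0.489, 0.518 and 0.766 CPM in stimulated WT, and no clone library had a count. It was thus at least 69.0-fold lower in clone 1 and 102-fold lower in clone 2 when uninduced. From the lower WT level after stimulation the bounds were 13.4-fold and 9.84-fold. *Mirg*, further along the cluster, did not pass the filter. It had 25 counts in uninduced WT, 0 in clone 1 and 1 in clone 2.

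*Dlk1* was at 1.92, 2.25 and 4.16 CPM in uninduced WT, without a count in clone 1 and at 0.469, 0.177 and 0.0580 CPM in clone 2. Clone 1 was therefore at least 56.7-fold lower, and the log2 fold change in clone 2 was -3.34 ± 0.65 (adjusted p = 0.000105). All 3 groups were separate, although the lowest clone 2 library held 1 count beside 0 in clone 1. In stimulated cells WT was at 1.37, 0.389 and 0.857 CPM and clone 2 at 0, 0.196 and 0.2405 CPM. Clone 1 again had none, at least 19.3-fold below WT, and clone 2 had a log2 fold change of -2.56 ± 0.81 (adjusted p = 0.00906), on 7 counts against 56. That call was lost without stimulated WT replicate 1 (log2 fold change -2.08, adjusted p = 0.0568) and without stimulated clone 2 replicate 1 (-1.95, adjusted p = 0.0545). The paternally expressed *Rtl1* and *Dio3* had 39 and 16 counts over all libraries, and all 16 of *Dio3* were in uninduced WT.

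The promoters of *Dlk1* (plus strand, chr12:109452573-109452822) and *Meg3* (plus strand, chr12:109540746-109540995) are shown as the starts of the 2 ends of this cluster that are read from opposite parental copies. They held 8 and 10 CpG dinucleotides in 250 bases, and TGCCGC 0 and 1 times. *Meg3* has a second RefSeq start, whose window (chr12:109545148-109545397) held neither a CpG nor the hexamer.
*Dlk1* promoter: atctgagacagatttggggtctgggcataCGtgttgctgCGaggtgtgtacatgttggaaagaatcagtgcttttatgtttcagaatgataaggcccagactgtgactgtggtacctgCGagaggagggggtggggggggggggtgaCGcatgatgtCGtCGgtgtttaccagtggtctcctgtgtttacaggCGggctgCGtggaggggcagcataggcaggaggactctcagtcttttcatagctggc
*Meg3* promoter: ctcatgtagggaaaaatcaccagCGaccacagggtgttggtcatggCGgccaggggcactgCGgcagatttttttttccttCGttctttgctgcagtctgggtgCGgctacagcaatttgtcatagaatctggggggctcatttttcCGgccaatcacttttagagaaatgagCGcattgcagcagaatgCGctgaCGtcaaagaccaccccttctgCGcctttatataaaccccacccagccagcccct

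The transcripts of this cluster host many microRNAs on the same strand, with 2 microRNA genes of the RefSeq table in *Meg3* (miR-1906 and miR-770), 3 in *Rian* and 14 in *Mirg*. Those of miR-770 in *Meg3* and miR-370 in *Rian* are given as examples from the 2 hosts with the clearest counts in WT, and no seed is shared among them.
mmu-miR-770-5p: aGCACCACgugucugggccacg
mmu-miR-770-3p: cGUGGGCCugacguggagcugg
mmu-miR-370-5p: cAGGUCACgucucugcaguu
mmu-miR-370-3p: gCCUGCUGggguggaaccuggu

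*H19*, a maternally expressed noncoding RNA, was at 17.1, 15.3 and 13.8 CPM in uninduced WT, at 0 in all libraries of clone 1 and at 0.669, 0.133 and 0.174 CPM in clone 2. Clone 1 was at least 291-fold lower, and clone 2 had a log2 fold change of -5.25 ± 0.32 (adjusted p = 1.91e-13). Stimulated WT libraries were at 6.55, 6.65 and 7.58 CPM, with no count in clone 1, at least 157-fold lower, and 0.224, 0.2615 and 0.180 CPM in clone 2. The groups did not overlap in either treatment. *Igf2*, the paternally expressed partner of *H19*, had 2 counts in uninduced WT and 11 in stimulated WT and none in either clone. The miR-675 hairpin lies within *H19*.
mmu-miR-675-5p: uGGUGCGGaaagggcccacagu
mmu-miR-675-3p: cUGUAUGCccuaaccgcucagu

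*Ndn*, which encodes necdin, a growth-restraining protein of the MAGE family in the Prader-Willi region, separated the clones. It was at 82.5, 97.8 and 94.6 CPM in uninduced WT, had no count in clone 1 and was at 29.6, 33.3 and 29.9 CPM in clone 2. Clone 1 was at least 1767-fold lower than WT, and clone 2 was at 0.332 of the WT level, with a log2 fold change of -1.57 ± 0.08 (adjusted p = 1.59e-14). After stimulation WT was at 51.2, 56.7 and 52.4 CPM, clone 1 again had no count, at least 1211-fold lower, and clone 2 was at 11.4, 11.3 and 11.9 CPM, a log2 fold change of -2.21 ± 0.09. *Ube3a*, a ubiquitin ligase gene of the same region whose imprint is known from neurons, had uninduced levels of 49.8 ± 5.02, 52.3 ± 2.78 and 51.8 ± 2.88 CPM in WT, clone 1 and clone 2. The stimulated levels were 67.0 ± 2.55, 55.2 ± 4.66 and 55.8 ± 3.89 CPM, with both clones below WT without overlap. It was not called in either treatment.

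*Peg3*, a paternally expressed zinc finger gene, was at 8.10, 6.87 and 7.24 CPM in uninduced WT and at 7.43, 7.34 and 5.55 CPM in stimulated WT. In uninduced clone 1 it was at 0, 0.107 and 0.259 CPM and in clone 2 at 0, 0.0886 and 0 CPM. All clone libraries lay below all WT libraries. Clone 1 had 7 counts, a log2 fold change of -5.86 ± 0.47 (adjusted p = 1.82e-11), and clone 2 had 2 counts, a ratio of 0.00321 with a 95% counting interval of 0.000387 to 0.0117. In stimulated clone 1 no count was left, at least 153-fold below WT, and clone 2 had 6 counts (0.0560, 0.131 and 0.180 CPM), a log2 fold change of -5.74 ± 0.48. Its neighbours *Usp29* and *Zim1* had 2 and 14 counts in all, every one of them in uninduced WT.

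*Plagl1*, a zinc finger transcription factor gene known as a regulator of other imprinted genes, also stood apart in clone 1. It was at 20.2, 17.4 and 16.2 CPM in uninduced WT, 0.410, 0.322 and 0.466 CPM in clone 1 and 10.7, 10.3 and 14.7 CPM in clone 2. The log2 fold change of -5.46 ± 0.28 in clone 1 was called (adjusted p = 3.20e-16), and that of -0.60 ± 0.18 in clone 2 was not. Every uninduced clone 2 library still lay below every WT library, and only the fold threshold was missed (edgeR adjusted p = 0.00569). In stimulated cells WT was at 6.26, 7.34 and 7.62 CPM, clone 1 at 0.320, 0.148 and 0.364 CPM and clone 2 at 1.91, 1.44 and 3.43 CPM. Both clones were then called, at -4.70 ± 0.31 and -1.64 ± 0.23.

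*Grb10* had the smallest log2 fold changes of the 8 genes in each of the 4 comparisons. It was at 722, 702 and 675 CPM in uninduced WT, 174, 187.5 and 175 CPM in clone 1 and 312, 294 and 311 CPM in clone 2, with no overlap among the 3 groups. The log2 fold changes were -1.97 ± 0.05 (adjusted p = 2.97e-24) and -1.19 ± 0.05 (adjusted p = 2.85e-19). After stimulation WT was at 645, 659 and 629 CPM, clone 1 at 177, 197 and 188 CPM and clone 2 at 241, 235.5 and 231 CPM, with log2 fold changes of -1.78 ± 0.05 and -1.45 ± 0.05. Of its 2 RefSeq promoter windows, the upstream one (minus strand, chr11:12037421-12037670) held 40 CpG dinucleotides, reached by 1.31% of the windows, and no TGCCGC, and is shown as the most CpG-rich promoter among the genes lower in both clones. The other window held 8 CpG dinucleotides.
*Grb10* promoter: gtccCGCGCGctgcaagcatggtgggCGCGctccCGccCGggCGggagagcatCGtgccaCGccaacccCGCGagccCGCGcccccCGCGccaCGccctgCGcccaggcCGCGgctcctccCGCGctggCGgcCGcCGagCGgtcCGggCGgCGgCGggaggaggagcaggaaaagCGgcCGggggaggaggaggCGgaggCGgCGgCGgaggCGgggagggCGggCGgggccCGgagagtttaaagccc

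**Figure D2:**
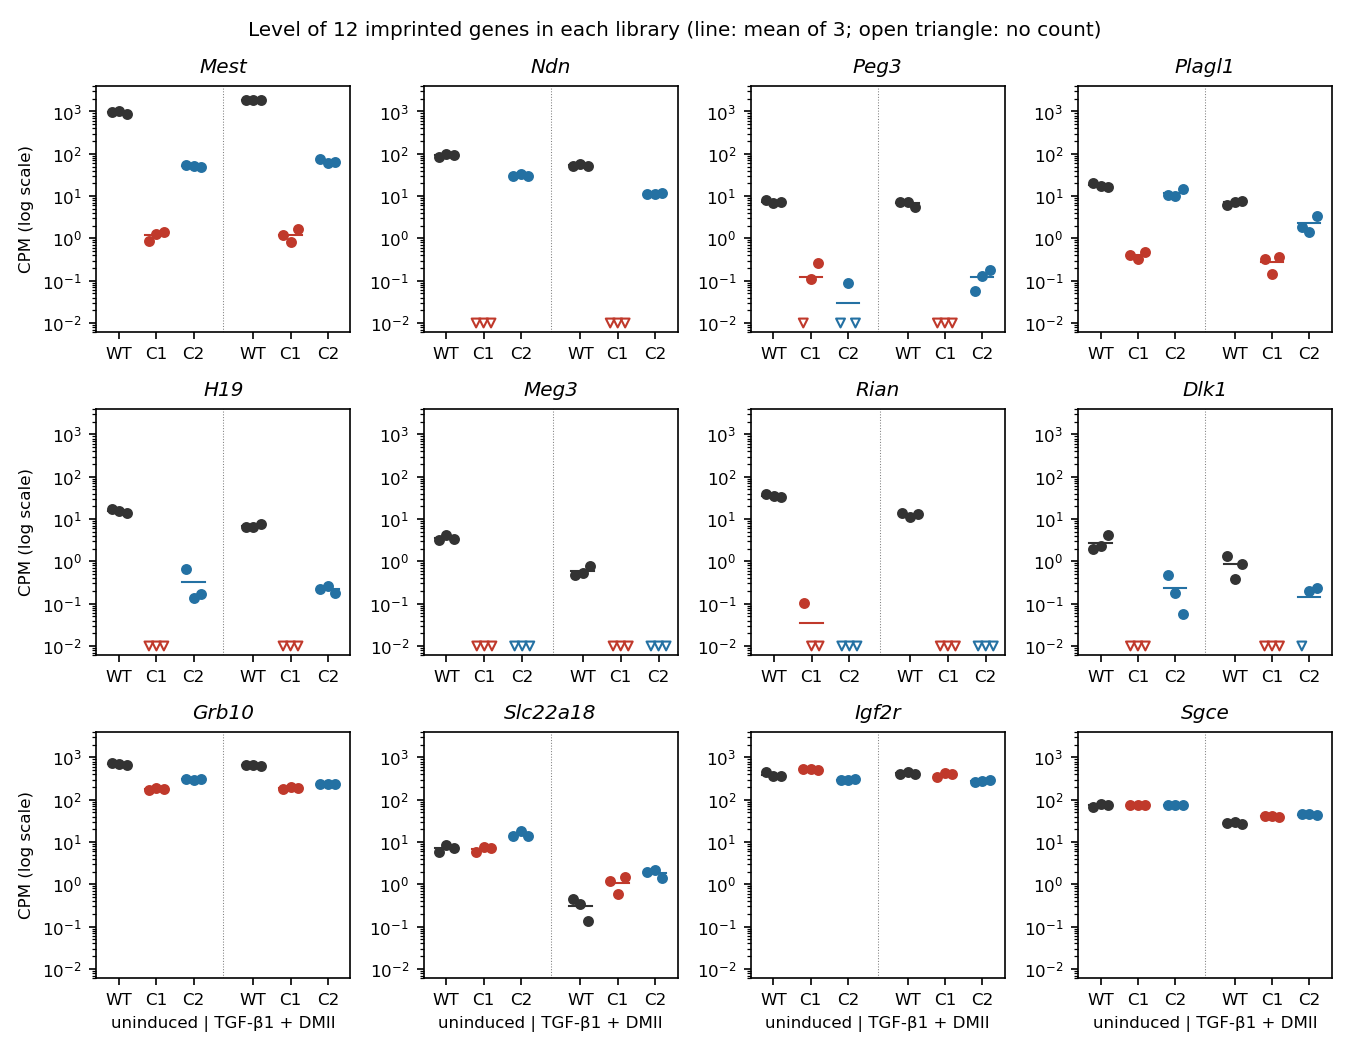
CPM on a log scale in each library for 12 imprinted genes, with WT in black, FOXS1 KO clone 1 (C1) in red and clone 2 (C2) in blue, uninduced at left and TGF-β1 + DMII stimulated at right (lines are means of 3 libraries and open triangles are libraries without a count). The clone points of *Mest*, *H19*, *Rian* and *Peg3* lie well below WT in both treatments. Points of *Ndn* and *Plagl1* are lower in clone 1 than in clone 2. Those of *Igf2r* and *Sgce* lie closer to WT. Stimulated *Sgce* is above WT in both clones, and *Igf2r* is above WT in uninduced clone 1 and below it in clone 2.

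*Peg10* and *Sgce* are paternally expressed neighbours on chromosome 6, *Peg10* being derived from a retrotransposon and *Sgce* encoding ε-sarcoglycan. *Peg10* was at 13.9, 13 and 10.3 CPM in uninduced WT, 5.02, 5.9 and 5.28 CPM in clone 1 and 7.63, 6.02 and 9.22 CPM in clone 2, with both clones below WT without overlap. The log2 fold change of -1.19 ± 0.15 in clone 1 was called (adjusted p = 1.40e-07), and that of -0.70 ± 0.14 in clone 2 was not. In stimulated cells it was at 54.7, 56.4 and 55.1 CPM in WT, 20.6, 26.1 and 29.4 CPM in clone 1 and 23.4, 20.8 and 24.8 CPM in clone 2, with log2 fold changes of -1.12 ± 0.12 and -1.27 ± 0.12. The call in stimulated clone 1 was lost without stimulated clone 1 replicate 1 (log2 fold change -0.999) and relative to the chromosome median (-0.99). *Sgce* was at 74.2 ± 7.72, 75.0 ± 1.91 and 74.1 ± 0.557 CPM in uninduced WT, clone 1 and clone 2, with log2 fold changes of 0.0135 ± 0.0654 and -0.00274 ± 0.0649. After stimulation *Sgce* was at 28.3 ± 1.25, 40.5 ± 1.55 and 44.5 ± 1.37 CPM in the same order. Both clones were then above WT without overlap, and neither was called.

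*Slc22a18*, a transporter gene of the *Kcnq1ot1* domain, moved the other way. It was at 5.77, 8.34 and 7.24 CPM in uninduced WT, 5.89, 7.78 and 7.15 CPM in clone 1 and 13.9, 18.3 and 14.1 CPM in clone 2. Clone 1 overlapped WT, and clone 2 was higher by a log2 fold change of 1.11 ± 0.20 (adjusted p = 2.39e-05), a call lost without uninduced WT replicate 1 (0.99) or uninduced clone 2 replicate 2 (0.97). In stimulated cells, where WT was at 0.440, 0.345 and 0.135 CPM, clone 1 was at 1.17, 0.590 and 1.46 CPM and clone 2 at 1.96, 2.22 and 1.44 CPM. Both were above WT without overlap, by 1.76 ± 0.41 (adjusted p = 0.000468) and 2.60 ± 0.38 (adjusted p = 1.08e-06) on the log2 scale. *Kcnq1ot1*, the noncoding RNA of the domain, did not differ from WT past the test in either clone, with uninduced means of 1.69 ± 1.51 CPM in WT, 1.56 ± 0.257 CPM in clone 1 and 1.31 ± 0.550 CPM in clone 2.

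By edgeR 12 of the 24 genes were not called in any comparison of a clone with WT, beside 68.9% of all tested genes. *Igf2r* was at 394 ± 54.6, 523 ± 13.1 and 298 ± 3.41 CPM in uninduced WT, clone 1 and clone 2, and *Airn*, the noncoding RNA that runs antisense through it, at 6.57 ± 1.43, 10.4 ± 1.26 and 8.82 ± 0.612 CPM. Stimulated *Igf2r* was at 421 ± 28.2, 393 ± 51.6 and 276 ± 11.6 CPM. Without overlap, *Igf2r* was above WT in uninduced clone 1 and below WT in clone 2 in both treatments. The median log2 fold change of its chromosome, 17, had the same signs. It was 0.15 in uninduced clone 1, and -0.19 and -0.24 in uninduced and stimulated clone 2. *Impact*, a regulator of the GCN2 stress kinase, was above WT without overlap in all 4 comparisons, with log2 fold changes from 0.59 to 0.85 that stayed under the fold threshold. *Gnas*, which encodes the stimulatory G protein α-subunit, was between 61.1 and 82.5 CPM in the 6 group means. *Trappc9* and *Peg13*, on chromosome 15, had log2 fold changes of 0.09 to 0.66, where the median gene of that chromosome was higher in the clones by 0.39 to 0.44. *Commd1*, *Zrsr1*, *Sgce*, *Ube3a* and *Kcnq1ot1* also stayed within the fold threshold. *Slc38a4*, an amino acid transporter gene, had 5, 7 and 36 counts in uninduced clone 1, against 30 in the 3 WT libraries together. In stimulated clone 1 it had 1 count against 12 in WT, with every clone 1 library below every WT library. This was not called by edgeR (adjusted p = 0.0634) and was called lower by the DESeq2 Wald test (adjusted p = 0.0352) and by edgeR without the filter (adjusted p = 0.0438).

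**Figure D3:**
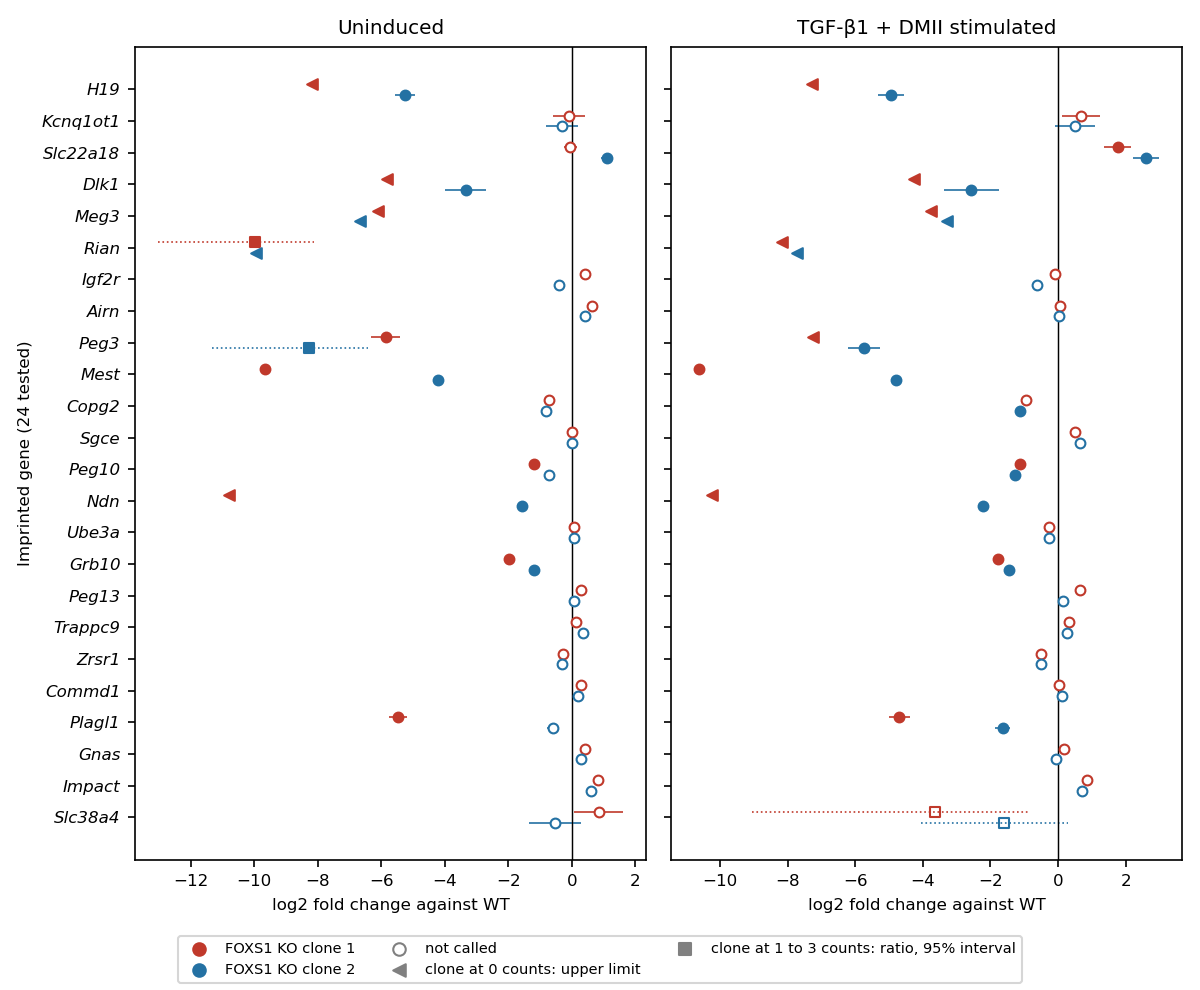
Log2 fold change of the 24 tested imprinted genes against WT in uninduced (left) and TGF-β1 + DMII stimulated (right) cells, clone 1 in red and clone 2 in blue, with SE bars, filled points for called genes, triangles at the upper limit for groups without a count and squares (open where not called) with the 95% counting interval for groups with 1 to 3 counts. Points for *Mest*, *Ndn*, *H19* and *Plagl1* lie further left in clone 1 than in clone 2, and *Slc22a18* is right of 0 in 3 of the 4 comparisons.

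The genes around the clusters were compared with WT in uninduced cells to place the imprinted genes in their surroundings. Some of these neighbours are imprinted themselves and belong to the further list of imprinted genes described below. They include *Tspan32* near *H19*, *Begain* near *Meg3* and *Cpa4* near *Mest*. *Casd1* and *Pon3* near *Peg10*, *Cobl* near *Grb10*, and *Peg12* and *Mkrn3* near *Ndn* are also of this kind. Within 500 kb of *Meg3* only 2 genes outside the 39 were tested, and neither was called. Their log2 fold changes were -0.018 and -0.20 in clone 1 and -1.32 and -0.25 in clone 2. Around *H19* 11 genes had a median of 0.63 in clone 1 and 0.17 in clone 2, and *Tspan32* was higher in both, by 3.85 ± 0.16 and 4.26 ± 0.16. Around *Mest* 12 genes had medians of -0.52 and -0.48, with 4 called lower in clone 1 and 3 in clone 2.

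Around *Peg10* and *Sgce* 3 of the 4 neighbours were called lower in each clone, and the fourth, *Col1a2*, was at -0.12 and -0.13. *Pon3*, a paraoxonase gene of this domain, had 496 counts in WT, 11 in clone 1 (log2 fold change -5.33 ± 0.36) and 2 in clone 2. *Sgce*, which lies between such neighbours, was not called. Around *Grb10* 2 of 3 neighbours were called lower in each clone, and around *Peg3* 2 of 7 in clone 1 and 3 of 7 in clone 2, with *Zfp583* lowest in both. Near *Plagl1* 1 of 9 neighbours, *Phactr2*, was called lower in each clone, and near *Ndn* 0 of 3 in clone 1 and 2 of 3 in clone 2.

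**Figure D4:**
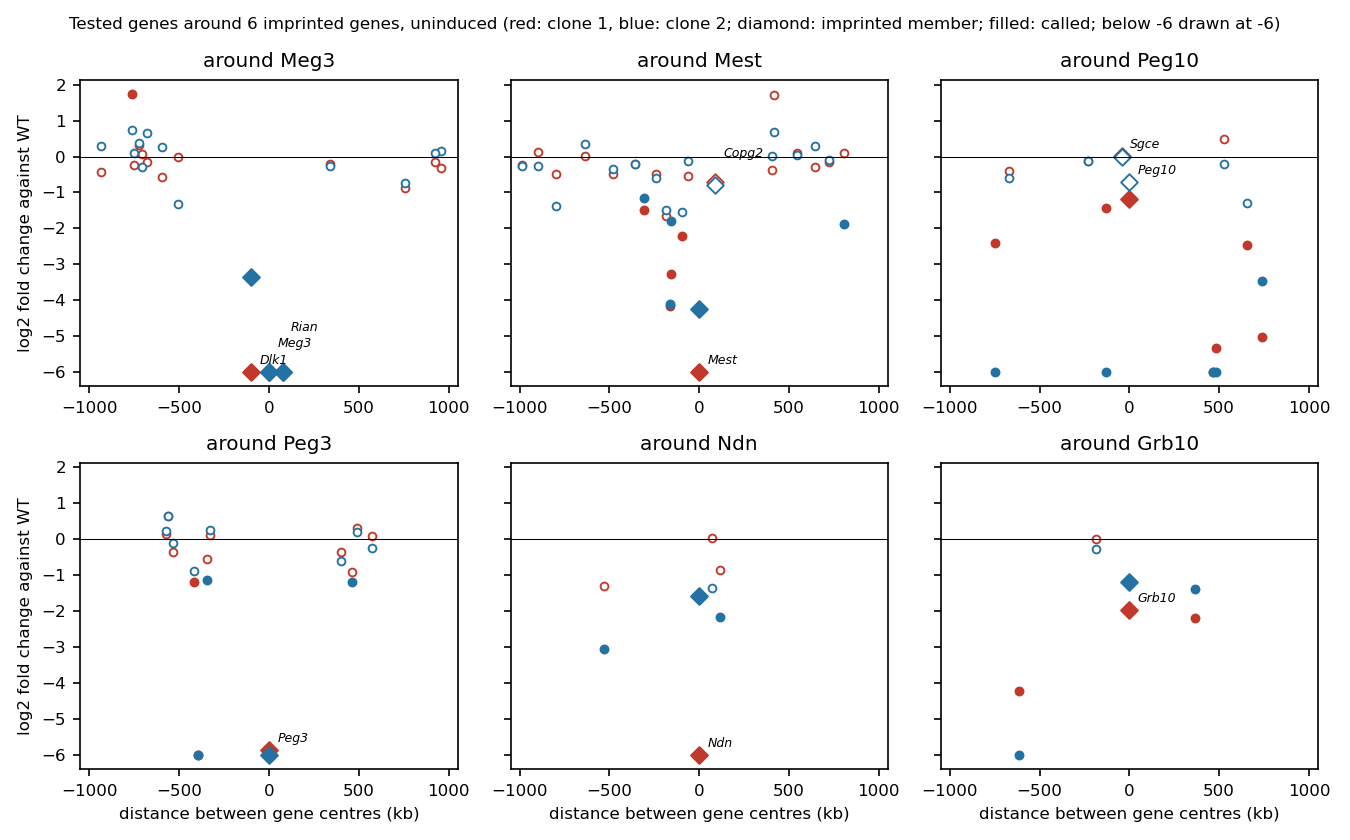
Log2 fold change against WT in uninduced cells of the tested genes within 1000 kb of 6 imprinted genes, plotted by the distance between gene centres, with clone 1 in red, clone 2 in blue, diamonds for the imprinted genes described here, filled symbols for called genes and values below -6 drawn at -6. Circles include imprinted genes outside the 39, such as *Casd1*, *Pon3* and *Peg12*. Around *Meg3* no neighbour is called except *Gm34220*, higher in clone 1 (1.74). *Dlk1*, *Meg3* and *Rian*, which passed the filter only with WT, are called lower in both clones. Around *Peg10* several neighbours are far below 0 and *Sgce* is at 0.

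In WT cells, TGF-β1 + DMII changed 10 of the 24 tested imprinted genes, 1 higher beside 6.25% of all genes and 9 lower beside 13.6%. Of those counted as lower, *Meg3* passed the filter only with the uninduced WT libraries. All 3 of these reached the count cutoff, beside 1 of stimulated WT and 0 of the clones. *Dlk1*, also counted as lower, had 3, 2 and 1 in the same order. These counts were not split by how a gene passed the filter. *Peg10* was the gene that rose, from a mean of 12.4 ± 1.89 CPM (SD, n = 3) to 55.4 ± 0.910 CPM, a log2 fold change of 2.17 ± 0.13 (adjusted p = 1.16e-14). It also rose in clone 1 by 2.23 ± 0.14 and in clone 2 by 1.60 ± 0.14. *Mest* went from 952.5 to 1885 CPM in WT, a log2 fold change of 0.99 ± 0.08 that fell just short of the threshold.

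The 9 genes that fell in WT were *Slc22a18*, *Meg3*, *Dlk1*, *Rian*, *Kcnq1ot1*, *Sgce*, *Plagl1*, *Impact* and *H19*. *Slc22a18* fell most, from 7.12 ± 1.29 to 0.307 ± 0.156 CPM (log2 fold change -4.52 ± 0.32, adjusted p = 2.58e-13). It fell in both clones as well, by -2.72 ± 0.26 and -3.04 ± 0.24 on the log2 scale. *Meg3* and *Rian* changed by -2.60 ± 0.51 and -1.47 ± 0.15, and *Sgce* by -1.39 ± 0.07 (adjusted p = 7.23e-17), from 65.6, 80.5 and 76.4 CPM to 28.1, 29.7 and 27.2 CPM. *Impact* went from 67.8, 80.4 and 76.7 CPM to 31.7, 35.85 and 31.1 CPM (-1.19 ± 0.08, adjusted p = 1.23e-13). *Kcnq1ot1* went from 3.44, 0.839 and 0.800 CPM to 0.293, 0.993 and 0.541 CPM, and its groups overlapped. The changes of *Dlk1* (-1.69 ± 0.59, adjusted p = 0.0156) and *Kcnq1ot1* (-1.41 ± 0.55, adjusted p = 0.0273) rested on single libraries. Without uninduced WT replicate 1 that of *Kcnq1ot1* was -0.40 (adjusted p = 0.528), and it was also lost without stimulated WT replicate 1 (-1.08, adjusted p = 0.130) or replicate 3 (-1.31, adjusted p = 0.0822). Without uninduced WT replicate 3 that of *Dlk1* was -1.26 (adjusted p = 0.111), and it was also lost without stimulated WT replicate 2 (-1.31, adjusted p = 0.0965) or replicate 3 (-1.66, adjusted p = 0.0526).

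In clone 1, 1 of the 24 genes was higher after stimulation beside 5.95% of all genes and 4 were lower beside 10.7%. In clone 2, 1 was higher beside 6.46% and 4 lower beside 11.2%. *Impact* fell in all 3 genotypes, by -1.19 ± 0.08 in WT, -1.16 ± 0.08 in clone 1 and -1.07 ± 0.08 in clone 2 on the log2 scale. The last of these missed the fold threshold without stimulated clone 2 replicate 2 (-0.99). *Ndn* (-1.42 ± 0.10) and *Plagl1* (-2.38 ± 0.22) were called lower in clone 2. In clone 1 *Peg3*, at 7 counts against 0, and *Slc38a4*, at 48 counts against 1, were also called lower. *Slc38a4* reached the count cutoff of the filter only in uninduced libraries, 2 of WT and 1 of clone 1. The *Peg3* change was not called without uninduced clone 1 replicate 3 (fitted log2 fold change -3.34, adjusted p = 0.118), and the ratio of *Slc38a4* was 0.0176 with a 95% counting interval of 0.000438 to 0.103.

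**Figure D5:**
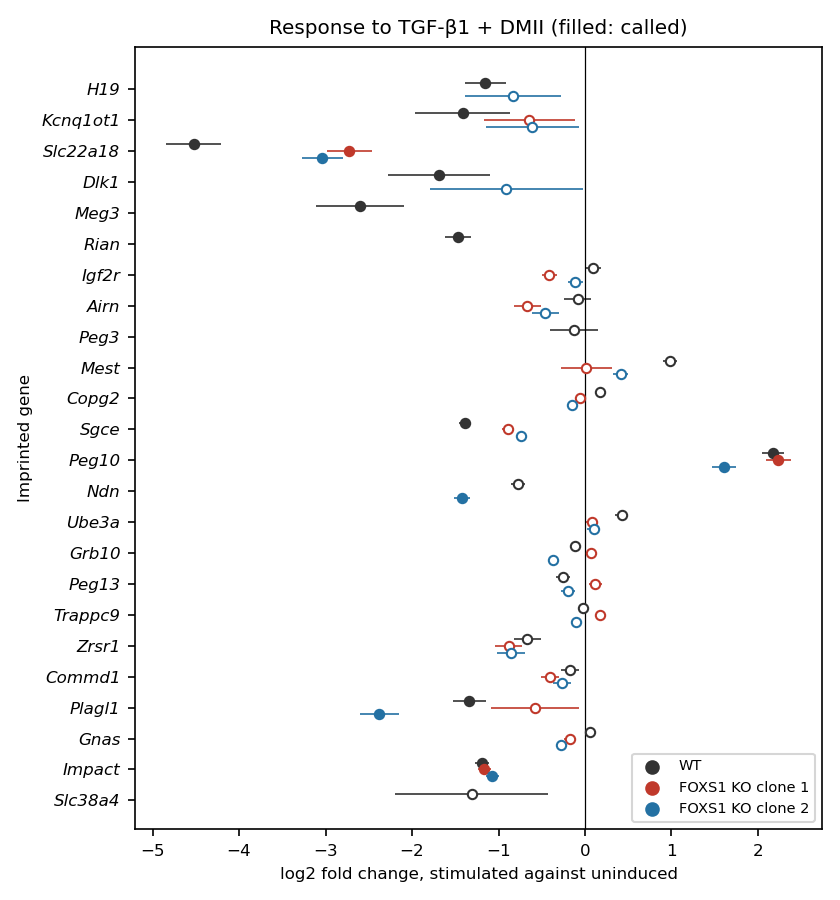
Log2 fold change of stimulated against uninduced cells in WT (black), clone 1 (red) and clone 2 (blue) with SE bars, filled where called, for the tested imprinted genes (a genotype with 3 or fewer counts in a group is left out). *Peg10* is right of 0 and *Slc22a18* and *Impact* are left of 0 in all 3 genotypes.

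Whether the response differed between a clone and WT was tested as an interaction. For clone 1, 2 of 24 imprinted genes were called, beside 8.81% of all genes. *Slc22a18* fell less in clone 1 than in WT, by 1.80 ± 0.46 on the log2 scale (adjusted p = 0.00288), and *Peg3* had a fitted difference of -4.33 ± 1.53 (adjusted p = 0.0313), which is no bound since stimulated clone 1 had no count, and the call was lost without uninduced clone 1 replicate 3 (adjusted p = 0.182) or any 1 of the stimulated clone 1 libraries (adjusted p = 0.0567 to 0.0814). For clone 2, 2 of 24 were called beside 7.85%, *Slc22a18* again (1.49 ± 0.45, adjusted p = 0.0104) and *Plagl1* (-1.04 ± 0.29, adjusted p = 0.00632). The *Slc22a18* call in clone 2 was lost without stimulated WT replicate 3 (1.13, adjusted p = 0.0703). That of *Plagl1* fell below the fold threshold without replicate 3 of uninduced WT, stimulated WT or uninduced clone 2 or without replicate 1 or 2 of stimulated clone 2, at values from -0.99 to -0.82. No such difference could be fitted reliably for *Meg3*, *Ndn*, *H19* or *Dlk1* in clone 1, which had no count there in either treatment.

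The clones were then compared with each other. In uninduced cells 6 of the 24 genes differed, beside 8.67% of all genes, and in stimulated cells 6 differed beside 9.98%, all of them lower in clone 1. *H19*, *Dlk1*, *Mest*, *Ndn* and *Plagl1* were lower in clone 1 in both treatments, *Slc22a18* in uninduced and *Peg3* in stimulated cells. No gene was higher in clone 1 than in clone 2 by edgeR or DESeq2 in either treatment. At an unadjusted p under 0.05 past the same fold none was by edgeR and 1 by DESeq2 in uninduced cells. *Ndn* had 2592 counts in uninduced clone 2 and none in clone 1. The *Dlk1* difference in stimulated cells rested on 7 counts against 0 and was lost without any 1 of the 3 clone 1 libraries or replicate 2 or 3 of clone 2 (adjusted p = 0.0629 to 0.121), and in uninduced cells it was lost without clone 2 replicate 1 (adjusted p = 0.0688). That of *Peg3*, 6 counts against 0, was lost without clone 1 replicate 2 or clone 2 replicate 3 (adjusted p = 0.0543 and 0.068).

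Imprinted genes outside the 39 were read from a list of 43, of which 25 were tested. In uninduced cells 3 were higher and 8 lower in clone 1, beside 6.32% and 8.73% of all tested genes, and 4 higher and 7 lower in clone 2, beside 5.54% and 9.56%. *Qpct*, which encodes glutaminyl-peptide cyclotransferase, was lower in both, with 154 counts in WT, 2 in clone 1 and 3 in clone 2, and so was *Sfmbt2*, a Polycomb group gene, by log2 fold changes of -2.46 ± 0.48 and -1.31 ± 0.43. *Herc3*, whose intron holds *Nap1l5*, was called lower in clone 1, with 159 counts in WT and 1 in clone 1, and in clone 2 had a log2 fold change of 0.22 ± 0.36. In stimulated cells the counts were 3 higher and 7 lower in clone 1, beside 9.42% and 9.6%, and 4 higher and 6 lower in clone 2, beside 7.95% and 8.94%. The counts of this list were not split by how a gene passed the filter. They may include genes that were tested only because of their WT level.

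Of 27 genes that set or keep imprints, 24 were tested and 1 was called in each clone in uninduced cells, lower in both, which is a smaller share than the 8.73% and 9.56% of all tested genes. That gene was *Zfp57*, which encodes the zinc finger protein that keeps methylation at imprinted control elements. It was at 3.61 ± 1.47 CPM in uninduced WT, 0.748 ± 0.0733 CPM in clone 1 and 0.424 ± 0.0996 CPM in clone 2, with log2 fold changes of -2.27 ± 0.41 (adjusted p = 2.83e-05) and -3.12 ± 0.43 (adjusted p = 4.05e-07). In stimulated cells it was lower by -3.25 ± 0.45 and -4.25 ± 0.53. *Trim28*, which encodes the corepressor that ZFP57 recruits, had log2 fold changes of -0.03 and 0.04 in uninduced cells, *Zfp445* -0.08 and 0.07 and the maintenance methyltransferase gene *Dnmt1* 0.42 and 0.51. After stimulation *Uhrf1*, the partner of DNMT1, was lower in clone 2 (-1.15 ± 0.09) and *Tet2*, a methylcytosine oxidase gene, higher (1.49 ± 0.20). DNA methylation was not measured, and the part of *Zfp57* in the levels of the imprinted genes was not tested.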

How the data were processed

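The authors sequenced poly(A) RNA of 18 libraries, 3 for each of 6 groups, mapped the reads to GRCm38 (mm10) with HISAT2 and deposited raw counts per gene. Which program and annotation were used for counting, and with what strand setting, is not given in the sources used here. Coordinates of 98.3% of 54409 genes matched GENCODE M21, which gave overlaps and neighbours.

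Tests were run with edgeR 4.0.16 in R 4.3.3. Of the 54532 genes, 14317 passed filterByExpr (minimum count 10). After TMM scaling, glmQLFit (robust) fitted 1 mean per group over all libraries, glmQLFTest gave the contrasts, and p-values were adjusted over all 14317 genes by Benjamini-Hochberg. Calls required adjusted p < 0.05 together with a more than 2-fold difference in either direction. CPM used TMM-scaled totals. Where a group had no count, a floor of 3 counts over the group gave the bound. Such floors, and the 95% intervals of ratios, cover counting error only. Groups followed the labels. Alternatives included DESeq2 1.42.0, other scalings and filters, and leaving out each library.

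The script was tested on simulated data with known changes. The genes and lists were chosen with earlier results of these data known. Values in every library of the groups compared are given for genes called in the same direction in both clones in at least 1 treatment, in 1 clone in both treatments, or in the WT response (there, of WT). Promoter windows and microRNAs came from RefSeq (GRCm38.p6), where 31 of the 39 genes had a promoter entry. *Cdkn1c*, *H19*, *Impact*, *Peg10*, *Peg13*, *Rtl1*, *Sgce* and *Trappc9* had none.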

Additional observations from a re-analysis of the deposited data

Results flagged for a closer look

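The response to TGF-β1 + DMII of 3 imprinted genes differed between a clone and WT by the interaction test. For each clone 2 of the 24 tested genes were called, near the shares of all tested genes, 8.81% for clone 1 and 7.85% for clone 2. *Slc22a18* fell in all 3 genotypes and less in the clones, with a difference of 1.80 on the log2 scale for clone 1 and 1.49 for clone 2. *Peg3* had a fitted difference of -4.33 for clone 1, on 7 counts in uninduced and 0 in stimulated clone 1, and *Plagl1* a difference of -1.04 for clone 2. All 4 values used the same WT libraries within a treatment, and none of them passed glmTreat, which tests against the fold threshold itself.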

How the results depend on the processing

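The depth limits what can be said of genes near 0, and each clone is 1 single-cell clone. Of 84 values of single genes, 78 of them calls, none reversed under any alternative, and 25 had a call that changed under at least 1 of them. Without a fold threshold the number of imprinted genes called rose to 18 (clone 1 against WT, uninduced), 17 (clone 2, uninduced), 19 (clone 1, stimulated), 17 (WT response), 12 (clone 1 response), 14 (clone 2 response), 12 and 12 (between clones, uninduced and stimulated), and 12 and 10 (difference in response from WT, clones 1 and 2). With glmTreat it was 6 for the WT response and 0 for both differences in response, where 3 and 1 genes had an unadjusted p under 0.05 and the DESeq2 Wald test called 3 and 2. Fitted on only the groups compared it was 3 for the clone 1 response and 3 between stimulated clones, and without the filter 4 for the clone 1 difference in response, and the cause of these shifts was not tested. For the clones against WT without a fold threshold, 26.3% to 30.5% of all tested genes were called in each direction. No share of all genes is given for the other comparisons and settings here and below. Those counts describe only how the number of calls moved with the processing.

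Leaving out 1 library at a time gave 10 to 10 calls for clone 1 and 8 to 9 for clone 2 against WT in uninduced cells, 11 to 12 for each clone in stimulated cells, 9 to 11 for the WT response, 4 to 5 and 4 to 6 for the clone responses, and 5 to 7 and 4 to 6 between clones. For the differences in response it gave 1 to 4 and 0 to 3. The lowest value of clone 2, 0, came without stimulated WT replicate 3, and values of 1 came without uninduced WT replicate 3, uninduced clone 2 replicate 3 or stimulated clone 2 replicates 1 or 2. Those of clone 1 were 1 without uninduced replicate 3 or stimulated replicate 2 of clone 1 and 4 without uninduced WT replicate 2 or uninduced clone 1 replicate 1. Libraries with the same replicate number did not deviate together, with correlations from -0.0412 to 0.0498 over 45 pairs, and a fit with the replicate number as a block gave 10, 9, 11 and 12 calls for the clones against WT and 9, 5 and 5 for the responses, with *Kcnq1ot1* lost from the WT response (adjusted p = 0.0571).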
